A study of Homo sapiens with 28 samples.

Results

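New and old RNA were compared within HEK293T cells, a widely used line derived from human embryonic kidney, after the sample handling that the depositors call drop-out conditions. The experiment held 9 of the series' 28 samples, and its members were chosen by their titles. All 9 came from wild-type cells, and the labels name no other genetic change. Cells were given 100 µM 4-thiouridine (s4U), a uridine analog that is built into RNA as it is made, for 2 h, or no s4U. The isolated RNA was then converted with 1 of 3 chemistries, and each chemistry had 2 labelled libraries and 1 unlabelled library. The chemistries were sodium periodate with trifluoroethylamine at pH 5.2 (TL), iodoacetamide (SLAM) and osmium tetroxide with ammonia (TUC). The 9 samples of improved handling (IH), with the same chemistries, s4U dose and time, serve below only as a comparison. What was done differently between drop-out handling (DO) and improved handling is not described in the labels beyond these names.

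Conversion makes s4U positions read as C, so RNA made during labelling carries T-to-C mismatches and RNA made earlier does not. A transcript that is made and degraded quickly is replaced within the labelling period and gives mostly new reads, whereas a stable transcript gives mostly old reads. Messages of transcription factors and stress regulators are textbook short-lived RNAs, and those of ribosomal proteins and metabolic enzymes are textbook stable ones. Here an exonic read with at least 2 T-to-C mismatches was counted as new, a read with 0 as old, and a read with exactly 1 as neither. A new molecule read with fewer than 2 conversions is therefore missed or counted as old.

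The labelled drop-out libraries held 892727 to 2735236 exonic reads assigned to a gene, and the unlabelled ones 836654 to 1496878. New reads numbered 43379 to 111621 per labelled library, which sets the precision of every gene-level ratio below. Nothing in the labels says whether replicates were separate cultures, so p-values measure the spread between these libraries, which may be technical. Intervals cover counting error only, since the reads carry no molecular identifiers. Gene identifiers in the counts could not be paired with symbols, so the HEK293T identity was looked at only in the authors' deposited table of rate constants. That table lists 5 of 10 markers associated with the line: NEFM, NEFL, VIM, KRT18 and CDH2. LIN28B, PAX2, KRT8, HOXA9 and CDH1 are not listed, and CDH1 was entered as a marker that is low in this line. Of markers of blood, fibroblast, hepatocyte and keratinocyte cells it lists 0 of 4. A transcript missing from that table need not be absent from the cells, so these counts do not settle the identity.

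New reads made up a small share of exonic gene reads and lay far above the unlabelled background in every chemistry. The new share, new reads as a percent of new plus old, was 7.84% (95% Wilson interval 7.79% to 7.89%) and 3.84% (3.804% to 3.875%) in the TL replicates. In the SLAM replicates it was 8.05% (7.99% to 8.11%) and 4.09% (4.07% to 4.11%). The TUC replicates gave 10.9% (10.87% to 10.99%) and 5.98% (5.93% to 6.03%). Replicate 1 was 1.83 to 2.04 times replicate 2 in the 3 chemistries, a gap far wider than the counting intervals. The unlabelled libraries had 0.0564% (TL), 0.0817% (SLAM) and 0.0514% (TUC). The groups do not overlap: the lowest labelled library is far above the highest unlabelled one. Averaged over chemistries, labelled exceeded unlabelled by 6.72 percentage points (exact permutation within chemistry, two-sided, p = 0.037, the smallest that 27 arrangements allow). Labelled libraries of improved handling had a mean new share of 19.3% ± 4.41 (SD, n = 6), against 6.79% ± 2.70 (SD, n = 6) here.

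**Figure D1:**
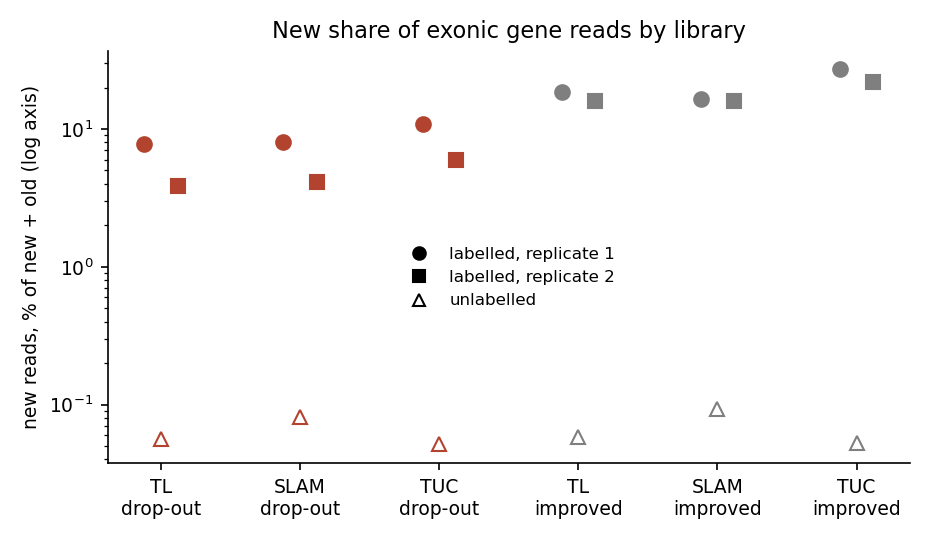
New reads as a percent of new plus old exonic gene reads (log axis) in each of 18 libraries, by chemistry and handling; circles and squares are labelled replicates 1 and 2, triangles unlabelled libraries. Labelled drop-out libraries sit between 3.84% and 10.9%, with replicate 1 above replicate 2 in each chemistry, and unlabelled ones below 0.1%.

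Gene by gene, new and old RNA differed widely in composition. In edgeR's quasi-likelihood test, paired by library and with Benjamini-Hochberg adjustment, 931 of 3661 genes were relatively higher in new RNA (25.4% of those tested) and 1136 were lower (31%). A further 1594 did not pass an adjusted p of 0.05. With 1 or more T-to-C counted as new, 1204 were higher and 1118 lower, so which direction holds more calls depends on that setting. Ratios are relative to the typical gene of the same library, since the scaling centres them, and the median log2 ratio over all genes was -0.16. The log2 ratio had the same sign in 6 of 6 libraries for 776 of the higher and 903 of the lower genes. It reached at least 4-fold in 289 higher and 327 lower genes. Pooled over the libraries, the new share of the median gene was 4.90%, and it ran from 1.04% at the 5th to 23.9% at the 95th percentile of genes. The median higher gene had 14.4% new reads and the median lower gene 1.84%. In 23 genes more than 50% of the pooled reads were new. At the other end, 6 genes had 0 new reads in the 6 libraries; all 6 were called lower, and their fitted ratios carry no size.

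**Figure D2:**
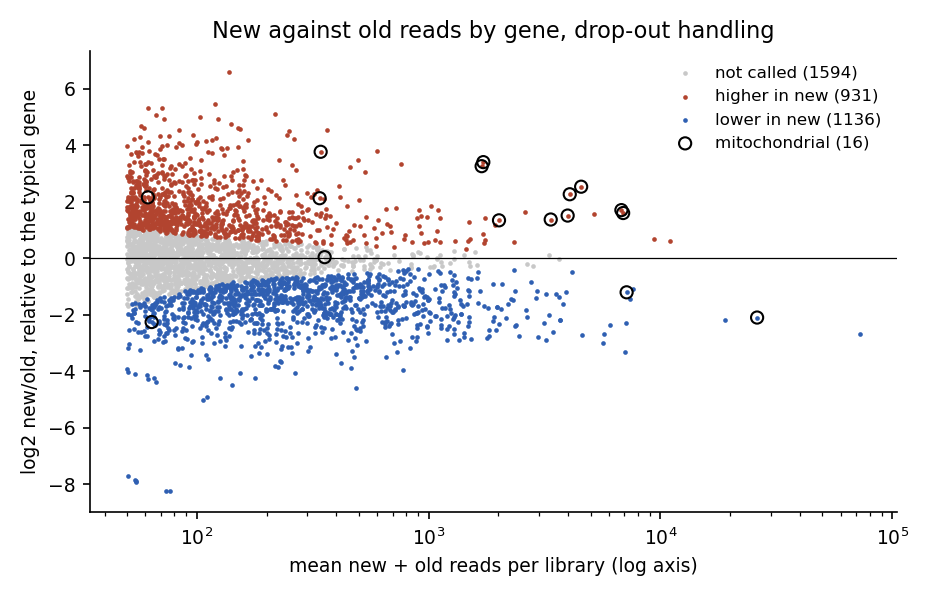
Log2 ratio of new to old reads relative to the typical gene, against mean new plus old reads per library (log axis), for 3661 genes; colours give the call and black rings mark 16 mitochondrial genes. Among the most abundant genes more points lie below the line than above it, and the mitochondrial genes split into a high and a low set; the 6 lowest points are genes with 0 new reads, whose height depends on the fit.

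Abundant genes were lower in new RNA more often than scarce ones. Of the 732 genes in the top quintile by reads, at 298.5 or more per library, 14.3% were higher and 66.7% lower. Of the 733 genes in the bottom quintile, at 50 to 67.8 reads, 34.4% were higher and 9.004% lower. Across genes, which are not independent replicates, the log2 ratio correlated with mean reads at Spearman rho -0.34. Mean reads are new plus old reads of the same libraries, mostly old, and old reads are also the ratio's denominator. This shared term favours a negative trend, so these values cannot show a separate relation with abundance. A scarce gene has less power to be called, and more so when its new reads are few. The number of T positions in a read bears on the chance of a mismatch: new reads averaged 33.97 to 37.9 T positions per library and old reads 30.3 to 32.7. Across genes the log2 ratio had a rho of 0.04 with the T positions of old reads. Its median was -0.15, -0.31, -0.21, -0.09 and -0.05 from the quintile of genes with the fewest T positions to that with the most. From the first to the last of these quintiles the share of genes called lower went from 36.8% to 23.6%, and the share called higher from 30.4% to 22.5%.

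The genes with the largest ratios held a large share of new reads. The 12 highest genes that passed the naming rule as run had log2 ratios of 2.60 to 4.55 and mean new shares of 26.6% to 57.0%. The top of both ranges is ENSG00000248527, whose ratio depends on the aligner, as described below. All 12 were above the unlabelled background, as were 93.3% of all genes tested against it. They were chosen for large ratios in the same labelled libraries, so this count is no separate support. ENSG00000130766, on chromosome 1, had a new share of 40.7% in the lowest, 54.8% in the median and 69.8% in the highest of the 6 labelled libraries, on 98 to 179 new reads each. Its 3 unlabelled libraries held 2, 2 and 0 new reads beside 377, 553 and 362 old ones. The labelled and unlabelled libraries do not overlap. Its log2 ratio was 4.35 ± 0.16 (SE), with an edgeR adjusted p of 3.1e-50. The naming rule itself required the same sign in 6 of 6 libraries. Over the other processing settings it ran from 3.56, with genes of a mean of at least 10 reads in the fit, to 4.62, with reads of middle T positions.

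ENSG00000248527, also on chromosome 1, had the largest ratio under the rule as run, and the alignment changed it. The rule's exclusion of pseudogenes could not be applied to it. Its new share was 41.3% in the lowest, 58.2% in the median and 77.8% in the highest labelled library, against 0 new reads in each unlabelled one. The log2 ratio was 4.55 ± 0.14 (SE; edgeR adjusted p = 9.7e-56) and was 0.95 when reads aligned with STAR were counted in place of HISAT-3N, and 1.06 with HISAT2. Its unlabelled libraries held 103, 76 and 56 reads with a single T-to-C mismatch beside 121, 236 and 79 old reads. Single mismatches were thus frequent in this gene without s4U; their part in the result was not tested. Identifiers alone do not show which genes share reads with near-identical copies, and 26 higher and 4 lower genes of enough depth were set aside because the STAR fit did not call them in the same direction or because they lie on the mitochondrial genome or an unplaced contig.

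The genes with the lowest ratios gave almost no reads counted as new. The 12 lowest genes under the rule had log2 ratios of -4.61 to -3.41 and mean new shares of 0.234% to 0.599%. Of these 12, 4 were above the unlabelled background, beside 93.3% of all genes tested against it. Choosing genes with few new reads in these libraries favours a low count. ENSG00000178741, on chromosome 15, had 0 to 2 new reads in each labelled library beside 136 to 616 old ones, and its new share was 0% in the lowest, 0.368% in the median and 0.73% in the highest. In its unlabelled libraries 0 new reads stood beside 187, 273 and 194 old ones. Labelled and unlabelled libraries overlap at 0. Its log2 ratio was -4.08 ± 0.49 (SE; edgeR adjusted p = 2.1e-12), and the test against background gave an adjusted p of 0.11. With reads of 1 or more T-to-C counted as new the log2 ratio was -1.50, and with genes of a mean of at least 10 reads in the fit -4.86.

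ENSG00000180900, on chromosome 8, held 7 new and 2905 old reads over the 6 labelled libraries, and 1 new and 1147 old reads over the 3 unlabelled ones. Its new share was 0% in the lowest, 0.262% in the median and 0.591% in the highest labelled library. The log2 ratio was -4.61 ± 0.39 (SE; edgeR adjusted p = 4.8e-20). Over the other processing settings it ran from -2.24, with 1 or more T-to-C counted as new, to -6.33, with reads of middle T positions, and it was -5.62 with 3 or more T-to-C. Against background its adjusted p was 0.36, so new RNA from this gene was not detectable at this depth.

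Most genes, low ones included, still carried new RNA above background. With old and new reads of each library scaled by the same total, 3392 of 3637 genes (93.3%) had a larger new to old ratio in labelled than in unlabelled libraries, and 0 had a smaller one (edgeR adjusted p under 0.05; 3406 passed an unadjusted p under 0.05). All 905 higher genes with a background test passed it, as did 925 of 1124 lower genes. Both groups were called on the same labelled reads, so these counts are not independent of the calls. The unlabelled libraries gave 0 new reads together in 2877 genes. Their share was over 1% in 14 genes and at most 3.05%. When TMM scaled all columns in place of library totals, 485 genes passed; that scaling centres the new reads of labelled and of unlabelled libraries alike on their typical gene.

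Genes encoded by the mitochondrial genome stood apart from most nuclear ones. This genome is transcribed as long precursors that are cut into messages for respiratory chain subunits, ribosomal RNAs and transfer RNAs. Of its 16 genes tested, 12 were higher in new RNA and 3 lower, beside 25.4% higher and 31% lower over all genes. Their median log2 ratio was 1.65 beside -0.16 over all genes. The 12 higher genes ran from 1.34 ± 0.11 (SE) to 3.77 ± 0.15, and each was higher in 6 of 6 libraries. The highest had a new share of 44.3% ± 13.4 (SD, n = 6). The most abundant, at 26143 reads per library, had a log2 ratio of -2.10 ± 0.09 and a new share of 1.47% ± 0.695 (SD, n = 6). A gene at 7151 reads had -1.21 ± 0.11, and both were lower in 6 of 6 libraries. The last lower gene, at 63.8 reads, had -2.26 ± 0.85 and was lower in 4 of 6. It held 4 new reads over the 6 libraries, and its test against background gave an edgeR adjusted p of 0.20. Old reads of the 12 higher genes averaged 34.3 to 50.4 T positions. Those of the 3 lower genes averaged 14.7 to 28.4, and those of the uncalled gene 24.9. The part of T positions in this split of the mitochondrial genes was not tested. These genes share 1 genome and its precursors, and reads could also come from nuclear copies, so they are not independent of each other. Mitochondrial genes supplied 7.46% to 10.5% of new reads and 4.81% to 7.24% of old reads.

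**Figure D3:**
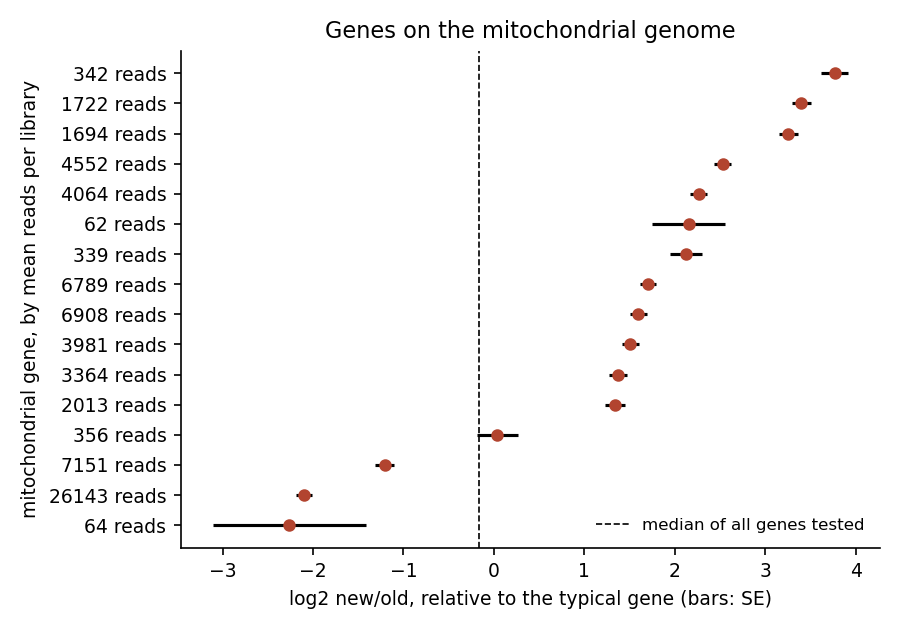
Log2 ratio of new to old reads relative to the typical gene (points, with SE bars from edgeR) for the 16 mitochondrial genes, each named by its mean reads per library; the dashed line is the median of all genes tested. Of the genes, 12 lie at 1.34 or above, 1 lies near 0 and 3 lie below -1.2.

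Symbols for mitochondrial transcripts come from the authors' deposited rate constants of RNA degradation, which were made from the same libraries and so are no independent check. Each constant is given below as a multiple of the median transcript of its chemistry, because its time unit is not stated. The constants and calls are those after drop-out handling unless improved handling is named. A transcript is called fast or slow where it is at least 2-fold above or below that median in each chemistry listing it. At least 2 chemistries must list it. By this rule 378 of 2032 transcripts (18.6%) are fast and 280 (13.8%) are slow in the authors' deposited table. All 11 mitochondrial messages listed are fast, with a median log2 of 1.99 over the typical transcript beside -0.06 over all 2032. After improved handling their median log2 is 0.59, below a 2-fold excess, beside -0.01 over all. MT-ND1 and MT-ND2, subunits of respiratory complex I, reach 11.4 and 10.2 times the median in the authors' deposited table. MT-CO1, a subunit of cytochrome c oxidase, is at 2.73 times it there. The ribosomal RNAs MT-RNR1 and MT-RNR2 are at 0.786 and 0.453 times the median of that authors' deposited table, and MT-RNR2 is slow.

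The list of immediate-early and other short-lived regulators was drawn up with results of these data known. It has 5 of its 46 members in at least 2 chemistries. All 5 are fast in the authors' deposited table, beside 18.6% of all transcripts, with a median log2 of 4.36. After improved handling their median log2 is 2.64. JUN, a subunit of the AP-1 transcription factor, is at 24.2, 30.6 and 24.8 times the median in TL, SLAM and TUC of the authors' deposited table. SOX4, a developmental transcription factor, is at 13.7, 20.4 and 12.8 times, and JUND, a second AP-1 subunit, at 6.44, 8.81 and 7.14 times in the authors' deposited table. For these 3 transcripts SLAM gives the highest multiple. Each multiple divides by its chemistry's own median, which is lowest in SLAM and taken over fewer transcripts there (1600 against 2209 in TL and 2262 in TUC). The ranking of chemistries therefore depends on that median. PPP1R15A, which directs removal of the phosphate on initiation factor eIF2, is at 22.4 times in TL and 18.8 times in TUC of the authors' deposited table, and is not listed for SLAM.

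Further fast transcripts were chosen after their values were seen, from the highest of those listed in all 3 chemistries. DDIT4 and SESN2, stress-induced inhibitors of mTORC1 signalling, are at 25.8 and 18.3 times the median on average in the authors' deposited table. TOB2, an anti-proliferative protein that binds the deadenylase complex, is at 18.6 times. IRF2BP2, a transcriptional co-repressor, is at 17.5 times, and BCOR, a BCL6 co-repressor, at 14.6 times in the authors' deposited table. Among genes named ZNF, which encode zinc finger proteins, 15 of 16 are fast there, beside 18.6% of all transcripts. Their median log2 is 2.56, with a range of 0.43 (ZNF512B) to 4.47 (ZNF503).

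Replication-dependent histone transcripts end in a stem-loop in place of a poly(A) tail and are made in S phase. After drop-out handling they are fast as a set. All 20 listed in at least 2 chemistries pass in the authors' deposited table, with a narrow range of log2 1.31 (HIST1H4C) to 2.61 (HIST1H1C) and a median of 1.66. Their median log2 after improved handling is 0.43, below a 2-fold excess. Near-identical histone copies can share reads, so single values are uncertain. Of 13 members of the ATF4 stress and amino acid synthesis list, 7 are fast and 1 is slow in the authors' deposited table. XBP1, a transcription factor of the unfolded protein response, is at 11.2 times the median and SLC3A2, an amino acid transporter subunit, at 8.69 times. ATF4 itself, the stress transcription factor, is at 2.86 times, while the serine synthesis enzyme PHGDH is at 0.384 times in the authors' deposited table. Cyclins and mitotic regulators have 3 of 12 fast, near the 18.6% over all transcripts, and 0 slow, led by the CDK-activating phosphatase CDC25A at 7.19 times the median in the authors' deposited table.

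Of 70 cytoplasmic ribosomal proteins in at least 2 chemistries, 50 are slow and 0 fast in the authors' deposited table, with a median log2 of -1.71. Over all 2032 transcripts there, 13.8% are slow and 18.6% fast. RPSA, a small-subunit protein, has the lowest mean over the chemistries, at 0.0977, 0.146 and 0.0662 times the median in TL, SLAM and TUC of the authors' deposited table. That rank belongs to drop-out handling. After improved handling its log2 is -1.26, above the ribosomal protein median of -1.77 there. RPLP1, a stalk protein of the large subunit, is at 0.0763, 0.189 and 0.127 times, and RPS21, of the small subunit, at 0.0821, 0.199 and 0.143 times in the authors' deposited table. For RPLP1 and RPS21 TL gives the lowest multiple and SLAM the highest, while for RPSA TUC gives the lowest. As above, SLAM multiples divide by the lowest median. RPL23, at a log2 of 0.44, and RPS29, at 0.26, are the 2 of the 70 above the median in the authors' deposited table. Translation factors are more mixed, with 8 of 27 slow and 1 fast, and EEF1A1, the main elongation factor, is at 0.286 times and EIF4A2, a helicase of initiation, at 2.59 times the median in the authors' deposited table.

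The sequences around the annotated starts are shown for the 3 slowest ribosomal proteins and for 3 fast regulators with values in all 3 chemistries, because messages of ribosomal proteins are known for a run of pyrimidines at the 5′ end that ties their translation to growth signals. Each is 30 bases, 15 before and 15 from the start on, from RefSeq's table on GRCh38.p14, read 5′ to 3′ on the gene's strand, and the capitals mark the first 5 transcribed bases.
RPSA: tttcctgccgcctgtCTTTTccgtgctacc
RPLP1: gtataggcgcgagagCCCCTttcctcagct
RPS21: ggtgactagctgcttCCTTTctctctcgcg
JUN: tcgggctggataaggGCTCAgagttgcact
SOX4: gcggaattggggtctGCTCTaagctgcagc
JUND: caagtggcgcggcgcAGGAGccgccgccag
The windows are chr3:39406705-39406734 (plus strand) for RPSA, chr15:69452803-69452832 (plus) for RPLP1 and chr20:62387088-62387117 (plus) for RPS21. They are chr1:58784033-58784062 (minus) for JUN, chr6:21593736-21593765 (plus) for SOX4 and chr19:18281608-18281637 (minus) for JUND. Each spans a gene's annotated first base, with promoter before it and exon after it. A start with C in the first position and C or T in each of the next 4, read on the gene's strand only, was found in 38 of the 56 listed ribosomal proteins with a sequence (67.9%). It was found in 182 of 2144 transcripts of the authors' deposited table with a sequence (8.49%) and in 1104 of all 27305 starts in the RefSeq table (4.04%). None of the 5 short-lived regulators with a sequence has it. A match describes letters at an annotated start, which may not be the start used in these cells.

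Glycolytic enzymes have 7 of 10 slow and 0 fast, and nuclear-encoded subunits of the respiratory chain 14 of 27 slow and 0 fast. Their median log2 is -1.65 and -1.50 in the authors' deposited table, where 13.8% of all transcripts are slow and 18.6% fast. PGK1 and GPI, enzymes of glycolysis, are at 0.145 and 0.158 times the median there, and UQCRC1 and NDUFV1, subunits of respiratory complexes III and I, at 0.167 and 0.173 times in the authors' deposited table. SDHA, the catalytic subunit of complex II, is the 1 of the 27 above the median, at 1.33 times in the authors' deposited table. Of the messages named for complex I, the mitochondrial MT-ND1 and MT-ND2 are fast and the nuclear NDUFV1 is slow in the authors' deposited table. UBA1, the main ubiquitin-activating enzyme, is at 0.123 times and QARS, the glutaminyl-tRNA synthetase, at 0.148 times; both were chosen after their values in the authors' deposited table were seen.

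The counts of the next groups stand beside 18.6% fast and 13.8% slow over all 2032 transcripts of the authors' deposited table, and several are near those shares. Chaperones have 1 of 21 fast (HSPA5, of the endoplasmic reticulum, at 2.41 times the median) and 1 slow (CCT7, a chaperonin subunit, at 0.392 times) in the authors' deposited table. Proteasome subunits have 3 of 15 slow and actin, tubulin and related proteins 2 of 16, with 0 fast in both, in the authors' deposited table. Sterol and fatty acid synthesis has 2 of 6 slow, FDPS and the sterol-responsive transcription factor SREBF2, and 0 fast in the authors' deposited table. Of SR splicing factors 2 of 6 are fast, SRSF4 leading at 5.01 times, and of snoRNA host RNAs 2 of 6, SNHG1 and SNHG17, in the authors' deposited table. Factors of mRNA decay have 3 of 11 fast, among them TOB2 and the nonsense-mediated decay helicase UPF1, and 1 slow, the decapping scaffold EDC4, in the authors' deposited table. RNA polymerase III transcripts, short noncoding RNAs, have 2 of 5 slow (RPPH1 and RN7SL2) and 0 fast in the authors' deposited table. Of 2 p53 targets listed, AEN is fast, and of 2 other long noncoding RNAs, NORAD is fast in the authors' deposited table.

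**Figure D4:**
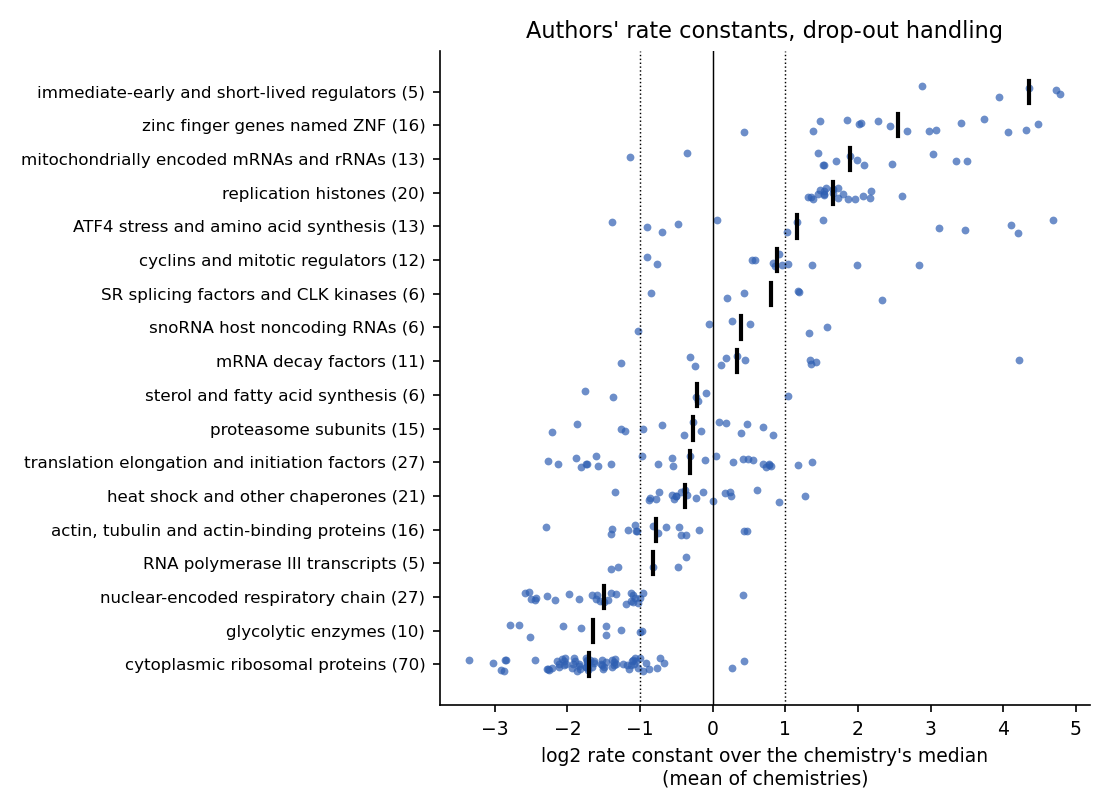
Log2 of the authors' deposited rate constant after drop-out handling over the median of its chemistry (mean of the chemistries that list it), for members of 18 lists with at least 5 members in 2 or more chemistries; points are transcripts, bars list medians, dotted lines 2-fold. Short-lived regulators have a median of 4.36, histones lie in a narrow band of 1.31 to 2.61, and ribosomal proteins have a median of -1.71.

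Calls by chromosome are given as a description, with no test, beside the 25.4% higher and 31% lower over all genes. On chromosome 19, 17.4% of 368 genes were higher in new RNA and 44.8% lower (median log2 -0.75), and on X 18.3% of 142 genes were higher and 43.7% lower (median -0.68). On chromosome 6, 34.4% of 183 genes were higher and 26.8% lower (median 0.16), where the lower share is near that over all genes. Chromosome medians of the count ratios and of the constants in the authors' deposited table had a Spearman rho of 0.44 over the 23 chromosomes other than the mitochondrial one. Both come from the same libraries.

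Differences between chemistries in the ratio of new to old RNA were not detectable gene by gene in the fit used here. In edgeR's test of read class by chemistry 0 of 3661 genes passed (0%), with a smallest adjusted p of 0.28. An unadjusted p under 0.05 was reached by 136 genes, and DESeq2 also called 0. The 3 pairwise contrasts each called 0. With read class by replicate number added to the fit, 1 gene passed. With 2 libraries per chemistry this does not show that the chemistries act alike. Between libraries the relative log2 ratios of 1137 genes with at least 200 reads correlated at r 0.69 to 0.82, which describes genes and not independent replicates. In the authors' deposited table the constants of pairs of chemistries had Spearman rho of 0.90 to 0.91 across 1482 to 1940 transcripts. Median constants there are 0.0430 (TL), 0.0354 (SLAM) and 0.0411 (TUC), in the unit not stated.

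The relative position of many genes differed between handlings, and most mitochondrial genes were relatively higher in new RNA after drop-out handling. Across the 12 labelled libraries, 708 of 5086 genes (13.9%) had a relatively higher new to old ratio after drop-out than after improved handling and 372 (7.31%) a lower one (edgeR, adjusted p under 0.05). The median difference over all genes was a log2 of 0.17. Without TL_DO replicate 2 the counts were 430 and 635, so the balance between directions rests on that library. Of the genes called, 65.6% were higher with TMM and 77.9% with library totals, but 43.6% with filterByExpr and 34.6% with 3 or more T-to-C required of a new read. Of 15 mitochondrial genes 14 were higher after drop-out and 0 lower, with a median log2 difference of 1.18 beside 0.17 for the other 5071 genes. Without each library in turn, 13 or 14 of them were higher. Their own new share was 10.8% ± 3.58 (SD, n = 6) after drop-out and 14.3% ± 4.22 after improved handling, so they stood higher relative to a typical gene whose new share was lower. Mitochondrial genes supplied 9.16% ± 1.12 (SD, n = 6) of new reads after drop-out and 3.24% ± 0.26 after improved handling, and 5.43% ± 0.923 and 4.77% ± 0.714 of old reads. The relative log2 ratio per gene also spread more widely after drop-out, with an SD over genes of 1.60 against 1.25. New reads were fewer after drop-out (43379 to 111621 against 128579 to 444532 per library), and the part of that depth in the wider spread was not tested.

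The handling difference is given by library for 4 nuclear genes, chosen after their values were seen. They are the largest called differences in each direction whose 6 libraries of each handling do not overlap. The depth rule, a mean of at least 200 reads, was taken over both handlings, so a gene could pass mainly through 1 of them. ENSG00000100664 on chromosome 14 had relative log2 ratios of 1.88 in the lowest, 2.73 in the median and 3.44 in the highest drop-out library, and 0.20, 0.50 and 0.64 after improved handling. The drop-out libraries are all the higher ones, and the difference was 2.24 ± 0.29 (SE; edgeR adjusted p = 1.3e-11). ENSG00000100664 held only 6 to 26 new and 19 to 81 old reads per drop-out library. After improved handling it held 49 to 190 new and 219 to 538 old reads. Its new share itself overlapped, at 12.9% to 57.8% after drop-out and 18.3% to 34.7% after improved handling, while the new share over all genes was lower after drop-out. ENSG00000143870 on chromosome 2 had -1.67, -0.83 and 0.53 after drop-out against -2.97, -2.33 and -1.76, a difference of 1.90 ± 0.32 (SE; edgeR adjusted p = 3.2e-07), or 0.999 with 1 or more T-to-C. Its new share overlapped, at 1.28% to 15.1% (median 3.74%) after drop-out and 2.29% to 6.55% (median 4.02%) after improved handling. It held 3 to 33 new reads per drop-out library and 7 to 44 per improved-handling library. 

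In the other direction, ENSG00000167792 on chromosome 11 had a new share of 0% in the lowest, 0.299% in the median and 1.71% in the highest drop-out library, and of 4.38%, 7.90% and 10.2% after improved handling. It held 0 to 5 new reads per drop-out library beside 288 to 967 old ones. The drop-out libraries are all the lower ones, and the log2 difference was -2.86 ± 0.48 (SE; edgeR adjusted p = 3.5e-07). With reads of 1 or more T-to-C counted as new it was -0.36, with an edgeR adjusted p of 0.29, and without SLAM_DO replicate 1 it was -3.61. ENSG00000130414 on chromosome 2 had shares of 0.709%, 1.42% and 6.48% against 14.3%, 24.3% and 33.6%. Its log2 difference was -2.39 ± 0.39 (SE, edgeR adjusted p = 2.0e-07), or -1.53 with 1 or more T-to-C. It held 1 to 7 new reads per drop-out library beside 72 to 431 old ones.

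**Figure D5:**
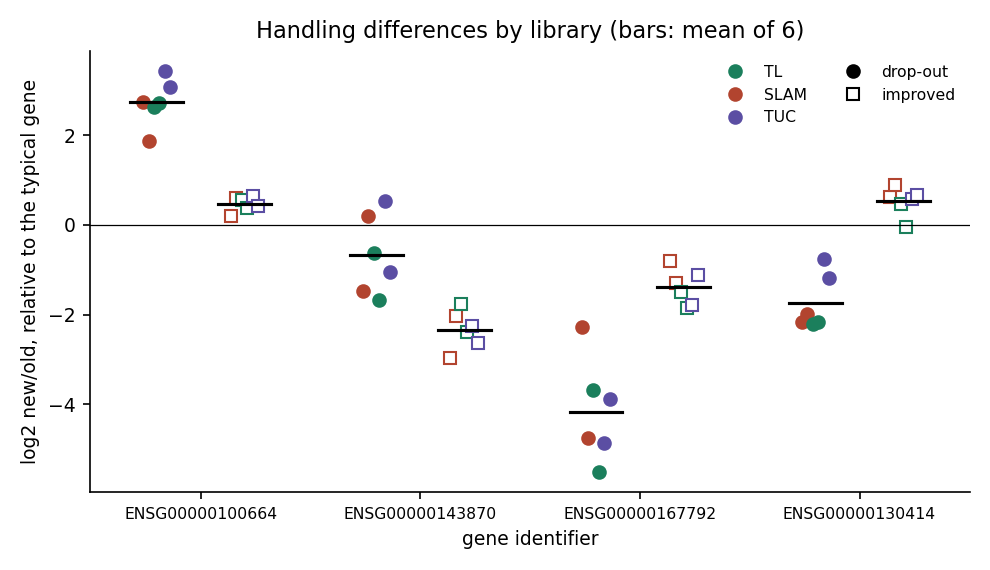
Relative log2 ratio of new to old reads for 4 genes in each labelled library; filled circles are drop-out and open squares improved handling, colours give the chemistry, bars the mean of 6 libraries. The genes were chosen because their 6 drop-out points do not overlap the 6 improved-handling points. The drop-out points lie above for the first 2 genes and below for the others.

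Groups that are fast after drop-out handling have median changes between handlings near 0 in the authors' deposited table, while the median transcript is higher after improved handling. Over all 2032 transcripts the median deposited log2 change, improved over drop-out, is 1.18, and 707 (34.8%) are higher after improved handling and 6 (0.295%) lower at the deposited adjusted p under 0.05 in each chemistry. The median change is -0.24 for the short-lived regulators, -0.07 for mitochondrial messages and -0.02 for histones in the authors' deposited table. For ribosomal proteins it is 1.23, for respiratory chain subunits 1.62 and for glycolytic enzymes 1.63. In these groups 25 of 70, 11 of 27 and 7 of 10 are higher in each chemistry of the authors' deposited table. For ribosomal proteins both the median change and this count are near those over all transcripts. RNA polymerase III transcripts have a median change of -1.17, and RMRP, RN7SL1 and RPPH1, all noncoding RNAs of ribonucleoprotein enzymes or the signal recognition particle, are 3 of the 6 lower after improved handling in the authors' deposited table. JUN, at -0.82, and the elongation factor EEF2, at -0.78, are another 2 of the 6 in the authors' deposited table. The drop-out constant enters both the fast and slow calls and these changes, so they are not independent. The libraries of the handlings also differ in depth and new share, whose part in these changes was not tested.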

How the data were processed

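Total RNA of HEK293T cells was converted and made into stranded total RNA libraries (SMARTer pico), per the labels' protocols. The authors deposited a table of read counts split by library, aligner, gene, intron overlap, T-to-C mismatches per read and T positions per read. Of 3 aligners there, HISAT-3N was used, exonic reads only. The submitters' processing notes name cutadapt, HISAT, HISAT2, STAR, Picard, HTSeq, DESeq2 and the build GRCh38, without versions; their settings are not given in the sources used here. The authors also deposited a score, the degradation rate constant for each handling, with a log2 fold change between handlings and an adjusted p-value; the constant's time unit is not stated.

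Genes with a mean of at least 50 new plus old reads per library were tested with edgeR 4.0.16 (glmQLFit, glmQLFTest; R 4.3.3), with TMM scaling, a term per library and Benjamini-Hochberg adjustment at 0.05. The background test used library totals in place of TMM, and the handling test added read class by chemistry. DESeq2 1.42.0 was an alternative. Relative log2 ratios per library used a pseudocount of 0.5. SE is the log2 ratio over the root of F. The tests were checked on simulated data.

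Members and lists were chosen with earlier results of these data known. Gene names: by a rule on adjusted p, equal sign in 6 libraries, at least 200 reads and the STAR fit, the largest ratios in each direction. The counts carry Ensembl identifiers that the reference tables did not pair with symbols, so the rule's conditions on symbols and pseudogenes, its list members and a gene-wise comparison with the rate constants were not run, and 2 identifiers per direction are given. The lists were therefore read from the rate constants, with 2541 of 2568 names matched to RefSeq symbols. Replicates were not duplicates of each other (ratio of chi-square to degrees of freedom 5.71 to 10.7), and none was merged. Replicate numbers were not taken as pairs across groups. Deviations of same-numbered libraries correlated at 0.07 (TL and SLAM), -0.02 (TL and TUC) and 0.08 (SLAM and TUC). These deviations use ratios centred within each library, so they cannot show a shift shared by all genes. Replicate 1 had 1.83 to 2.04 times the new share of replicate 2 in each chemistry. Whether same-numbered libraries share RNA was not tested. New and old columns are paired by library.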

Additional observations from a re-analysis of the deposited data

Results flagged for a closer look

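Reads with exactly 1 T-to-C mismatch, counted as neither new nor old, made up a mean of 7.46% of exonic gene reads in the 6 labelled drop-out libraries against 2.51% to 3.21% in the 3 unlabelled ones. Intronic reads, outside the gene comparison, had a mean new share of 19.7% in the labelled libraries against 0.322% to 0.621% in the unlabelled ones.

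Across 17 sets of 6 libraries checked for a library apart from the rest, 2 had one; chance gives about 1 in 20. SLAM_DO replicate 1 had 7.24% of old reads from mitochondrial genes, above the other labelled libraries. ENSG00000248527 had a relative log2 ratio of 5.15 in TUC_DO replicate 1, above the other 5.

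The 7 genes below differed between handlings by the edgeR test of the difference (drop-out minus improved, log2). The values are 2.24 for ENSG00000100664 and 1.90 for ENSG00000143870, and -2.86 for ENSG00000167792 and -2.39 for ENSG00000130414. Of the genes chosen for their ratio after drop-out handling, ENSG00000130766 differed by 1.20, ENSG00000248527 by 0.87 and ENSG00000180900 by -2.49, with edgeR adjusted p of 9.0e-07, 2.7e-05 and 3.8e-04. ENSG00000178741, chosen in the same way, differed by -1.73 and did not pass (edgeR adjusted p = 0.080). The choice used the same drop-out reads as the difference and favours its direction, so these p-values are no separate support.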

How the results depend on the processing

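New against old: the counts of higher and lower genes stayed within 1.5 times of 931 and 1136 with 1 or more T-to-C, library totals, DESeq2, at least 50 reads in each library, STAR, HISAT2, exonic plus intronic reads, chromosomes 1 to 22 and X, the transcript column (chosen after seeing the data) and no replicate block (1018 and 1167). They were 1498 and 1763 with filterByExpr and 1585 and 2426 with a mean of at least 10 reads, where more genes are tested. They were 392 and 661 with reads of 24 to 39 T positions and 90 and 124 with intronic reads, where fewer are. With 3 or more T-to-C 584 were higher; the cause was not tested. Leaving out each library gave 770 to 927 higher and 932 to 1104 lower. Genes above background numbered 485 with TMM over all columns and 2961 to 3456 without each library. For chemistry, read class by replicate number (the replicate block) gave 1 gene, and leaving out libraries 0 to 0. For handling, filterByExpr gave 642 lower, 3 or more T-to-C (added after seeing the data) 239 higher, and leaving out libraries 430 to 696 higher and 253 to 635 lower. Handling counts with the replicate block stayed within 1.5 times of 708 and 372. The labelled excess in new share was 3.74 points with 3 or more T-to-C and 6.14 with middle T positions (exact permutation p = 0.074 in both), and 5.90 to 7.55 without each library, where 18 arrangements cannot reach 0.05. The handling difference of ENSG00000167792 is given above; no named gene reversed. Low genes are limited by depth: a new share near 0.3% rests on 0 to 3 new reads per library.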

Other observations

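Intronic reads, which come from unspliced RNA, were richer in new RNA than exonic reads of the same genes. In 205 genes with at least 50 intronic and 50 exonic reads per library on average, the intronic share exceeded the exonic share in 86.3% to 90.7% of genes per labelled drop-out library. The median intronic new share was 30.4% and 15.6% in the TL replicates, 28.0% and 13.7% in SLAM and 38.6% and 22.7% in TUC. The median exonic share of the same genes was 4.44% and 2.00%, 4.56% and 2.20%, and 6.10% and 3.16%. Over all intronic gene reads, the new share was 12.5% to 28.6% in labelled drop-out libraries and 59.0% to 83.1% in labelled improved-handling libraries. It was 0.322% to 0.621% and 0.0831% to 0.137% in the unlabelled ones. The same direction appeared without s4U, where drop-out libraries averaged 0.493% in intronic and 0.063% in exonic gene reads. Labelled drop-out libraries averaged 19.7% and 6.79%. The part of T positions and of background mismatches in the intronic excess was not tested.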
